A study of Homo sapiens with 3 samples.

Results

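The clustered histone genes encode the core histones H2A, H2B, H3 and H4 and the linker histone H1, and they lie in the gene clusters named HIST1 on chromosome 6, HIST2 and HIST3 on chromosome 1 and HIST4 on chromosome 12. They were measured here in HCT116 cells, a human colorectal carcinoma line, on 3 one-colour Agilent arrays: 1 from cells that received a negative control (NC) and 1 from each of 2 PRMT1 knockdowns (KD1 and KD2). The labels and the study's methods say that PRMT1 was targeted by siRNA transfected with a lipid reagent, its results speak of short hairpin RNAs, and the labels do not state which sequence gave KD1 and which gave KD2. How long after transfection the RNA was taken is not given in the sources used here. Members were taken by name, as every probe whose gene name began with HIST1H, HIST2H, HIST3H or HIST4H. This gave 85 probes for 69 gene names out of 41749 names on the array. Each gene was read by its brightest probe, and 62 genes were well above background on at least 1 array: 4 of 6 H1 genes, 15 of 17 H2A genes, 16 of 19 H2B genes, and all of the H3 (13) and H4 (14) genes. All 62 were in fact above background on all 3 arrays, so none of their changes is a bound. The other 7 (HIST1H1B, HIST1H1T, HIST1H2AL, HIST1H2APS1, HIST1H2BA, HIST1H2BE and HIST2H2BA) were below background on every array. Nearest to that limit, HIST3H2A was inside it with levels of -2.28 in NC, -2.14 in KD1 and -1.47 in KD2 (log2 signal relative to the 75th percentile of the array, the scale of every level below), and HIST1H2BE was outside it with -3.74, -4.43 and -2.97.

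Core histones form the octamer around which DNA is wrapped, and H1 binds the linker between nucleosomes. The clustered genes are switched on mainly in S phase, when new DNA must be packaged, under the control of NPAT at histone locus bodies. Most of their mRNAs carry no poly(A) tail. They end just after a conserved stem-loop, which is bound by SLBP and cut with the help of the U7 snRNP, although several histone genes also make longer polyadenylated transcripts. PRMT1 deposits asymmetric dimethylation on arginine 3 of histone H4 (H4R3me2a), so histones are substrates of the enzyme that was knocked down. The labelling started from total RNA, which was turned into cDNA and Cy3-labelled cRNA, and the primer is not given in the sources used here. How well RNA without a poly(A) tail was labelled was not tested.

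The probes are 60 bases long, and some of them cover the stem-loop itself. The following 30-base stretches of 4 such probes are shown because they are the element that sets these mRNAs apart, with the 16 bases of the stem-loop in capitals (5′ to 3′, mRNA sense).
HIST1H2AI: ggaaccaaaGGCTCTTTTCAGAGCCaccta
HIST1H2BF: acccaatcccaaaGGCTCTTTTAAGAGCCa
HIST2H3A: cgtatccaaaaGGCTCTTTTCAGAGCCacc
HIST1H4K: ctatcaacaaaaGGCCCTTTTTAGGGCCcc
All 4 read lower in KD1 than in NC (55.5% of all genes) and than in KD2 (50.7% of all genes). Stem-loop probes of HIST1H3H and HIST1H2BE are not shown. That of HIST1H3H gave 1.98 in NC, 1.52 in KD1 and 2.09 in KD2, and that of HIST1H2BE was below background on every array. The HIST1H2AI probe gave 4.27 in NC, 3.24 in KD1 and 3.97 in KD2. The HIST1H2BF probe gave 2.67, 1.97 and 2.65 in the same order. The HIST2H3A probe gave 8.31, 7.56 and 8.07. The stem-loop probe of HIST1H4K, which was not its brightest, gave 5.64, 5.04 and 5.79.

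Genes of a core histone type encode nearly the same protein, and some of their probes resemble one another. The stretch of 26 bases that the brightest probes of 5 H4 genes share is shown to make this visible, with capitals where a base differs from the most common base at that place.
HIST1H4F: gtTctTaaggtgttcctggagaaTgt
HIST1H4H: gtTctgaaggtgttcctggagaacgt
HIST1H4I: gtgTtgaaggtgttcctggagaacgt
HIST1H4K: gtgctgaaggtgttcctggagaacgt
HIST2H4B: gtgctgaaggtgttcctggagaaTgt
The stretches differed from the most common sequence at 0 to 3 bases. The 5 genes gave log2 changes of -0.46, -0.40, -0.38, -0.37 and -0.40 in KD1 against NC and of 0.18, 0.22, 0.26, 0.23 and 0.24 in KD2, in the order shown. Over overlaps of at least 40 bases, 6 of the 62 member probes matched another member's probe at 90% of bases or more, and none matched throughout. The closest were HIST1H4F and HIST2H4B, at 93.0% over 43 bases. Probes were compared only with one another, and matches to other parts of histone transcripts were not checked. This count therefore does not measure how far signals are shared. Signals of genes of a type may be shared, so these genes are not independent measurements of a condition.

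PRMT1, the targeted gene, was measured first as a check of the labels (probe at chromosome 19, 50188248 to 50189362, genome build hg19 as for all probe positions). Its level was 6.03 in NC, 2.75 in KD1 and 1.48 in KD2, or 10.3% of NC in KD1 and 4.26% in KD2. The epithelial markers EPCAM, KRT8, KRT18, KRT19 and CDH1 were above background on all 3 arrays, while DCN, COL1A2 and PECAM1 were below it on all. The leukocyte marker PTPRC was above background on KD2 alone, and COL1A1 ranged from 1.53 to 2.15. There was 1 array per group, all on 1 slide. The study's methods name a further NC sample, which was not analysed here, so every change against NC rests on a single array, no difference between 2 arrays has a replicate check, and an effect of a knockdown cannot be told apart from variation between arrays. The signal error given by the extraction software had a median of 0.14 on the log2 scale for the histone probes on each array. That error was nearly the same for all bright histone probes, and it does not measure variation between arrays. The difference between KD1 and KD2 had a robust SD of 0.38 over the 17054 genes that were detected on each of the 3 arrays. No member spot was saturated.

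The histone genes were lower in KD1 than in NC as a family. Their median log2 change was -0.53, or 69.4% of NC, with an interquartile range of -0.68 to -0.36. Over all 19231 genes measured on these arrays the median was -0.07. Of the 62 histone genes, 56 lay below NC, against 55.5% of all genes. A total of 24 were lower by at least 1.5-fold, the study's threshold, where 14% of all genes were, and 0 were higher by that fold, where 12.4% of all genes were. The highest histone change was 0.44. In bulk RNA, fewer cells in S phase and less histone mRNA per cell cannot be told apart. The threshold falls inside the family's distribution, with 19 members within 0.1 (log2) of it. With spike-in scaling, which moved the median of all genes to 0.57, the split was 1 lower and 7 higher, where 1.97% of all genes were lower and 48.4% higher.

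In KD2 the family stood close to NC. The median change was 0.06, or 104% of NC, with an interquartile range of -0.04 to 0.20, against a median of -0.05 over 19421 genes. In KD2, 23 of the 62 genes lay below NC (54.3% of all genes did). The interquartile range over all genes was -0.33 to 0.25. Lower by 1.5-fold were 0 members, where 10.6% of all genes were, and higher were 4 members, where 9.68% of all genes were. These 4 were HIST1H1A, HIST1H2AA, HIST3H2A and HIST4H4, all of low signal on NC. PRMT1 was lower in KD2 than in KD1, whereas the histone signals were lower in KD1.

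The plainest difference was between the knockdowns themselves. KD1 was below KD2 in 61 of 62 histone genes, where 50.7% of 19544 genes were, and the exception, HIST2H2BF, differed by 0.02. The median difference was -0.57, or 67.4% of the KD2 signal, against -0.01 over all genes. The interquartile range was -0.67 to -0.43, and their robust SD was 0.16. This SD is the spread over histone genes for 1 pair of arrays and does not measure variation between arrays. In this comparison 29 members were lower in KD1 by 1.5-fold (9.66% of all genes) and 0 were higher (8.94% of all genes). This comparison does not use the NC array.

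**Figure D1:**
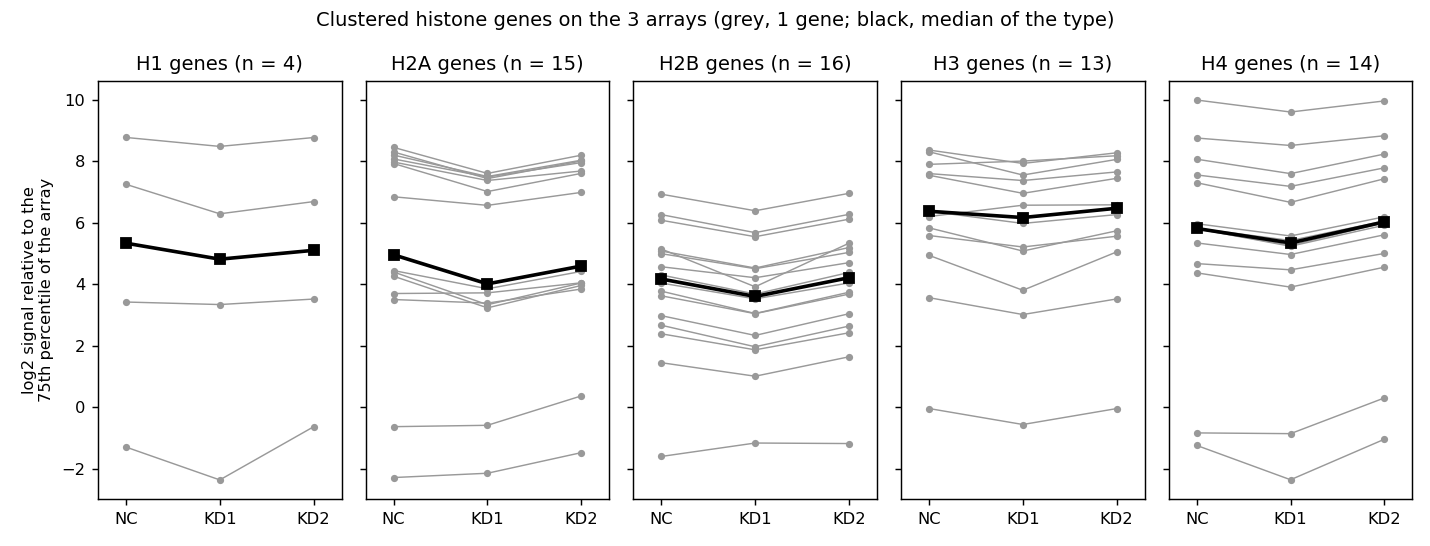
Log2 signal (relative to the 75th percentile of each array) of the 62 histone genes on the NC, KD1 and KD2 arrays, 1 panel per histone type; grey lines are single genes and black squares are the median of the type. Of the 62 lines, 56 are lower at KD1 than at NC, and 61 are lower at KD1 than at KD2.

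Probe composition moved with these values. Histone probes had a median GC content of 53.3%, against 43.3% over the genes measured in KD1 against NC, and when all genes were put into 5 classes by probe GC, the class with the highest GC had a median change of -0.32 in KD1 and the class with the lowest 0.18. Genes of like GC content and signal had, for the median histone gene, a change of -0.32 in KD1 and -0.24 in KD2. After that was subtracted, a setting chosen once the data were known, the family's median was -0.19 in KD1 and 0.29 in KD2, and 46 and 8 of the 62 genes lay below their class. The difference between KD1 and KD2 stayed at -0.53, with 60 of 62 genes below their class. The position of the family relative to NC thus moved with this correction, in both knockdowns, while the gap between the knockdowns moved by less than 0.1.

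Relative to all genes, the family stayed below 0 in KD1 and above 0 in KD2 in each of the settings plotted. Subtracting the median of all genes from that of the histone genes gave -0.46 in KD1, 0.11 in KD2 and -0.56 between them, and over the other settings, leaving out the GC correction, these ranged from -0.47 to -0.28, from 0.10 to 0.20 and from -0.60 to -0.45. The unshifted median in KD1 did not keep its sign, being 0.11 when each array was scaled to spike-in probes, a setting in which the median of all genes was 0.57. The unshifted median in KD2 was -0.09 when each array was scaled to its median.

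**Figure D2:**
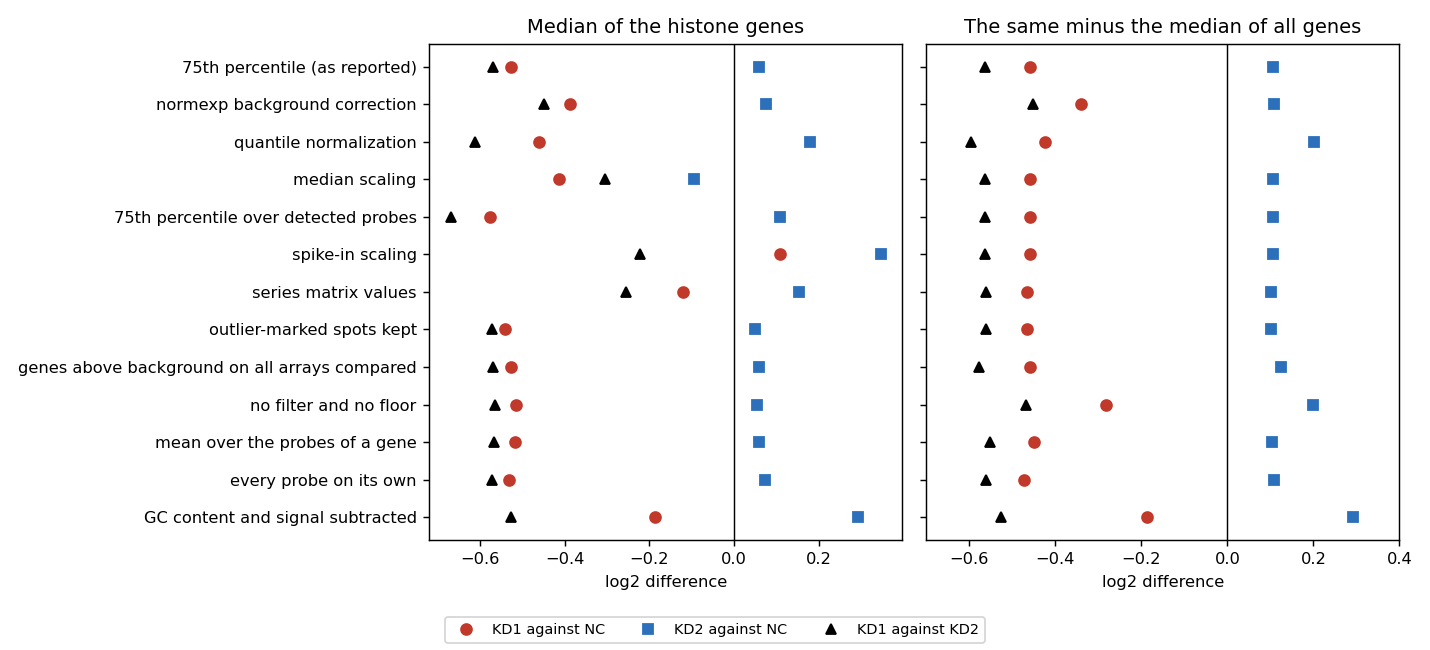
Median log2 difference of the histone genes (left) and the same minus the median of all genes (right) under each processing setting, for KD1 against NC (red circles), KD2 against NC (blue squares) and KD1 against KD2 (black triangles). On the right, the triangles stay between -0.60 and -0.45, while on the left the KD1 circle crosses 0 with spike-in scaling.

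In a limma fit that treats KD1 and KD2 as 2 samples of 1 knockdown group, the contrast with NC called 0 of the 62 histone genes after Benjamini-Hochberg adjustment over 20050 genes, and 0 had an unadjusted p under 0.05, where 8.12% of all genes did. Over all genes it called 83 (0.414%), PRMT1 among them (adjusted p = 0.0199). The lowest adjusted p among histone genes was 0.61, for HIST1H1E (mean change -0.76, SE 0.34). This fit assumes that the NC array varies like the knockdown arrays, and the gap between KD1 and KD2 counts as its error.

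The histone types were then described one by one. All 14 H4 genes were lower in KD1 than in NC (55.5% of all genes), with a median of -0.40 and a range of -1.12 to -0.02. Of the 14, 2 were lower by 1.5-fold, about the 14% of all genes. In KD2, 13 of the 14 were above NC, with a median of 0.20, where 54.3% of all genes were below NC. The median gap between the knockdowns was -0.64, next to -0.61 for H2B, and 11 of its 14 genes were lower in KD1 than in KD2 by 1.5-fold (9.66% of all genes). HIST1H4L, which had the brightest H4 probe that was kept (chromosome 6, 27840949 to 27841008), gave 10.00 in NC, 9.61 in KD1 and 9.97 in KD2. The brightest probe of HIST1H4C was marked as an outlier on KD1 and set aside. Read with that spot kept, it gave 11.56, 10.98 and 11.39, while the second probe of the gene gave 4.68, 4.48 and 5.01.

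Of the 16 H2B genes, 15 were lower in KD1 than in NC (55.5% of all genes). Their median was -0.55, with an interquartile range of -0.63 to -0.51. The range was wider, from -1.23 for HIST1H2BK to 0.44 for HIST2H2BF. In KD2 the genes ran from -0.04 to 0.42, with a median of 0.05. HIST1H2BL, which had the brightest H2B probe (chromosome 6, 27775286 to 27775345), gave 6.93 in NC, 6.40 in KD1 and 6.96 in KD2. The gene above NC in KD1 was HIST2H2BF (chromosome 1, 149397120 to 149397179), with -1.59, -1.16 and -1.17, and it was above NC in both knockdowns. The promoter held for HIST2H2BF lies far from this probe (chromosome 1, 149812371 to 149812520, GRCh38). For HIST2H2AC, on the same chromosome, the probe starts at 149858863 and the promoter at 149886768 in the same 2 builds. Whether the HIST2H2BF probe reads another copy was not tested.

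The H2A genes were split. By 1.5-fold, 10 of them were lower in KD1 (14% of all genes), with a median of the type of -0.60. In KD2, 10 of the 15 were also below NC (54.3% of all genes), and the median of the type was -0.17. HIST1H2AJ, which had the brightest H2A probe (chromosome 6, 27782132 to 27782191), gave 8.46 in NC, 7.61 in KD1 and 8.20 in KD2. HIST1H2AB (chromosome 6, 26033461 to 26033520) gave 4.40, 3.34 and 4.05. HIST1H2AG (chromosome 6, 27101247 to 27101306) gave 4.96, 4.02 and 4.60. HIST1H2AH (chromosome 6, 27115246 to 27115305) gave 7.93, 7.02 and 7.61. Together with HIST1H2AI, whose stem-loop probe is printed above, these H2A genes were lowest in KD1 and intermediate in KD2. Their changes in KD1 were -1.06 (HIST1H2AB), -1.03 (HIST1H2AI), -0.94 (HIST1H2AG) and -0.91 (HIST1H2AH), and in KD2 -0.36, -0.30, -0.37 and -0.32. Other H2A genes went the opposite way in KD2. HIST1H2AA (chromosome 6, 25726563 to 25726622), a histone best known from testis, gave -0.62 in NC, -0.58 in KD1 and 0.37 in KD2. HIST3H2A (chromosome 1, 228645483 to 228645542) gave -2.28, -2.14 and -1.47. Both were near NC in KD1 and higher in KD2, at low signals. Brighter H2A genes also lay above NC in KD2. They were HIST2H2AA4 (level 3.71 in NC, change 0.35), HIST1H2AE (3.51 and 0.34) and HIST1H2AD (6.85 and 0.14).

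The 13 H3 genes had a median of -0.44 in KD1, where 4 were lower by 1.5-fold (14% of all genes), and of -0.02 in KD2. Their median gap between the knockdowns was -0.35. HIST2H3D, which had the brightest H3 probe (chromosome 1, 120904981 to 120905040), gave 8.37 in NC, 7.93 in KD1 and 8.28 in KD2. The position given for this probe is on the plus strand. The promoter held for the gene lies elsewhere, on the minus strand (chromosome 1, 149813694 to 149813843, GRCh38). Whether the probe reads another copy was not tested. HIST1H3A (chromosome 6, 26020881 to 26020940) had the most negative KD1 change of the type, -1.13, with levels of 4.95, 3.81 and 5.06. HIST1H3C (chromosome 6, 26045965 to 26046024) gave 6.21 in NC and 6.58 and 6.59 in the knockdowns, so it was higher than NC in both by about the same amount. HIST3H3 was also above NC in both knockdowns, with 7.91 in NC, 8.01 in KD1 and 8.19 in KD2.

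The 4 linker histone genes ran from -1.07 to -0.08 in KD1 and from -0.56 to 0.66 in KD2. HIST1H1C, which encodes H1.2 and had the brightest H1 probe (chromosome 6, 26056050 to 26056109), gave 8.78 in NC, 8.49 in KD1 and 8.78 in KD2. HIST1H1E, which encodes H1.4 (chromosome 6, 26156928 to 26156987), gave 7.26, 6.30 and 6.69 and had the lowest mean change of all 62 genes. HIST1H1A (chromosome 6, 26017351 to 26017410) gave -1.29, -2.36 and -0.63, and its difference between the knockdowns was -1.73. With normexp background correction that difference was -0.67, smaller in size than those of HIST1H2BK (-1.27) and HIST1H3A (-1.10), and the changes against NC, -0.44 and 0.22, were under 1.5-fold. HIST1H1D gave changes of -0.08 in KD1 and 0.10 in KD2. Types were compared by their medians alone, and differences between types were not tested.

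**Figure D3:**
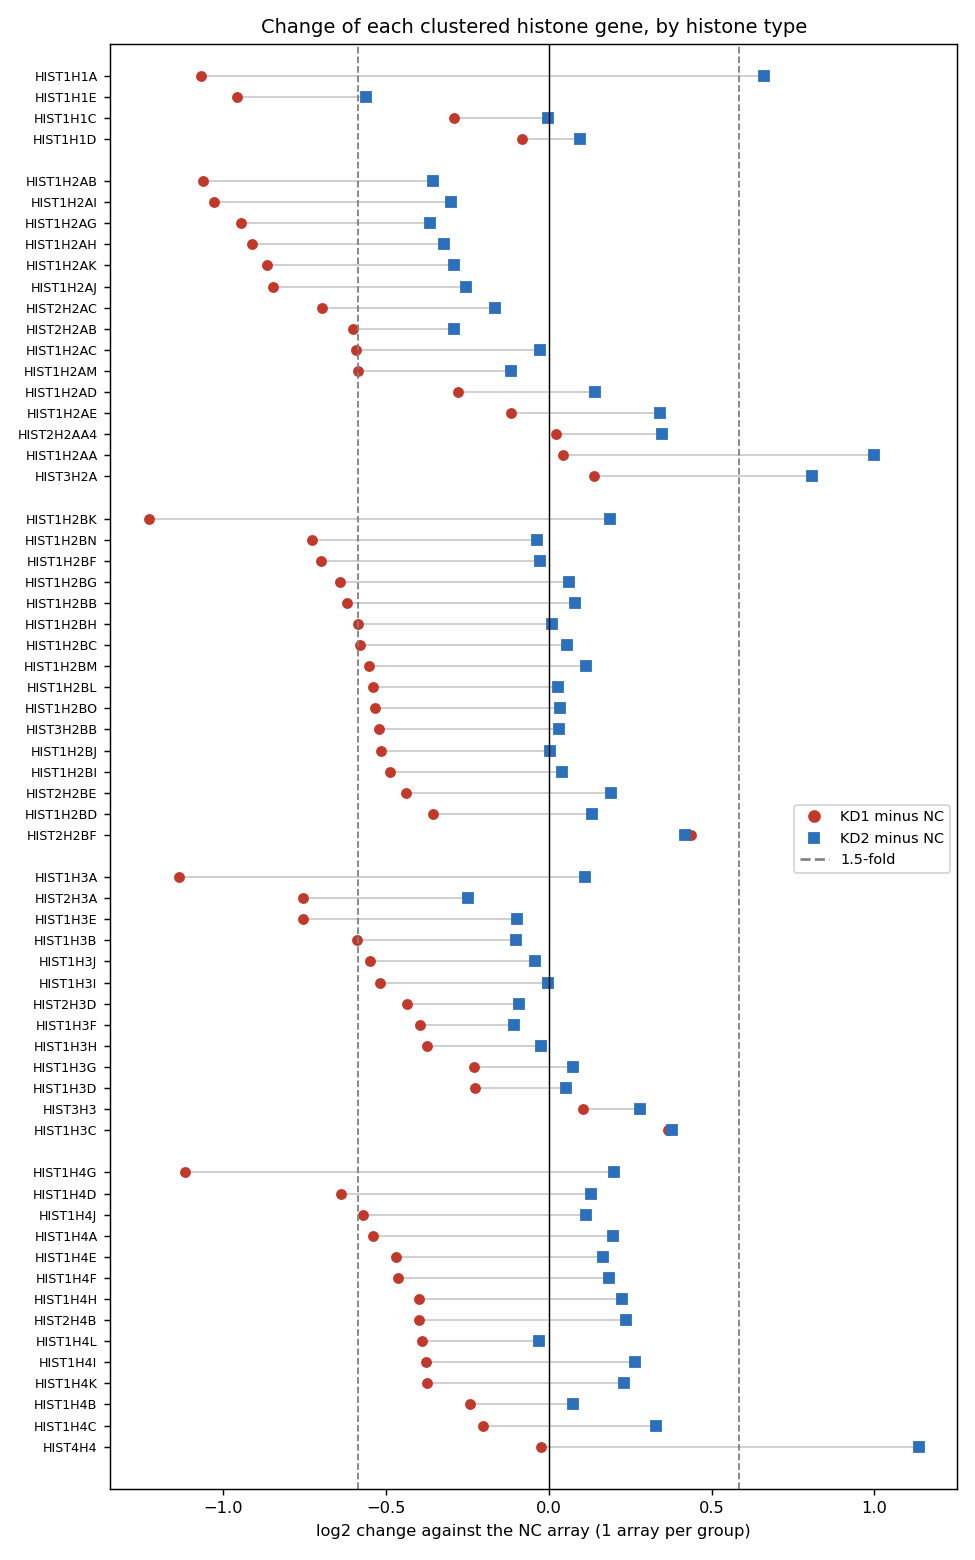
Log2 change of each of the 62 histone genes against the NC array in KD1 (red circles) and KD2 (blue squares), grouped from top to bottom as H1, H2A, H2B, H3 and H4 and sorted within a type by the KD1 change; dashed lines mark 1.5-fold. The red circle lies left of the blue square for every gene except HIST2H2BF.

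With the values as reported, the widest gaps between KD1 and KD2 after HIST1H1A belonged to HIST1H2BK, HIST1H4G, HIST1H3A and HIST4H4. HIST1H2BK (chromosome 6, 27106191 to 27106250) gave 5.15 in NC, 3.92 in KD1 and 5.34 in KD2. HIST1H4G (chromosome 6, 26247087 to 26247146) gave -1.23, -2.35 and -1.03. HIST4H4, the lone gene of its cluster (chromosome 12, 14924006 to 14924065), gave -0.83, -0.85 and 0.31. HIST1H2BK, HIST1H3A and HIST1H4G were low on the KD1 array, while HIST4H4 was high on the KD2 array and near NC on KD1.

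Along chromosome 6, the 19 genes of the distal block of HIST1 (the block with the higher coordinates) were all lower in KD1 than in NC, with a median of -0.55 and a range of -1.23 to -0.37. Of the 31 genes of the proximal block, 29 were lower, with a median of -0.49. The 8 HIST2 genes had a median of -0.44, and 6 of them were lower. Over all genes, 55.5% were lower in KD1 than in NC. The 3 HIST3 genes gave -0.52, 0.11 and 0.14. Against KD2, the medians in KD1 were -0.58 and -0.59 for the distal and proximal blocks, -0.43 for HIST2 and -0.55 for HIST3, and the lone HIST4 gene gave -1.16. The median was below 0 in all 4 clusters.

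Several genes had a second probe that starts past base 500 of the transcript given for it. Where these far probes lie relative to the stem-loop was not checked. In some genes the far probe differed in sign from the near one, and in others it did not. For HIST1H2AC, the probes that start at bases 30 and 88 gave changes of -0.56 and -0.59 in KD1, while the probe at base 1145, which lies 14419 bases downstream of the first in the genome (chromosome 6, 26138822 to 26138881), gave 0.76. Between KD1 and KD2 the near probes gave -0.59 and -0.56, and the far probe 0.34. Its levels were 1.10 in NC, 1.87 in KD1 and 1.53 in KD2. For HIST1H4H, the probe at base 171 gave -0.40 in KD1 and 0.22 in KD2, and the probe at base 975 gave 0.32 and 0.84. Between KD1 and KD2, both were below 0, at -0.62 and -0.51. For HIST1H2BK the far probe, at base 660, was the brightest probe and gave -1.23 in KD1, against -0.51 for the near one. Both had the same sign in each comparison, with 0.19 and 0.11 in KD2 and -1.42 and -0.62 between KD1 and KD2. The far probe of HIST1H2AG was above background on KD1 alone (-3.22 in NC, -2.44 in KD1 and -3.01 in KD2), and that of HIST2H2BE was below background on every array. The HIST2H2BF value above also comes from a far probe, at base 1734. Whether far probes read polyadenylated histone transcripts was not tested.

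**Figure D4:**
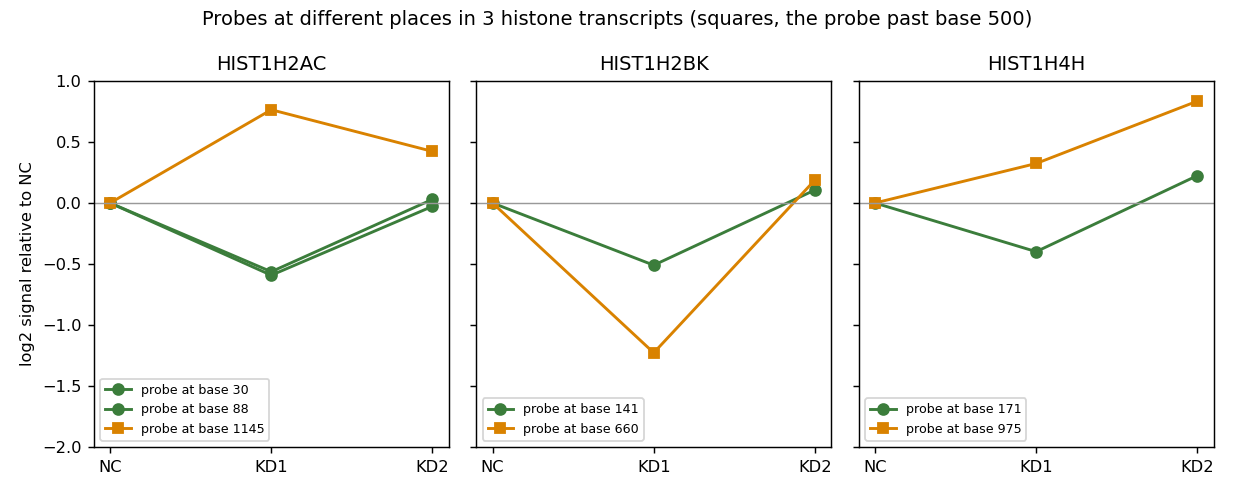
Log2 signal relative to the NC array of each probe of HIST1H2AC, HIST1H2BK and HIST1H4H on the 3 arrays; green circles are probes near the start of the transcript, orange squares the probe past base 500, and the legends give the base of the transcript at which each probe starts. The far probe lies above the near ones in HIST1H2AC and HIST1H4H and below in KD1 in HIST1H2BK.

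Because most of the genes were lower in KD1 than in KD2, their promoters were read for known histone promoter elements. RefSeq promoters (GRCh38.p14, 250 bases before to 50 after the start) were held for 57 of the 62 genes. The octamer ATTTGCAT, the site of POU2F1 (OCT1) in H2B promoters, was found on either strand in 12 of 16 H2B and 10 of 14 H2A promoters, in 1 of 11 H3 and in 0 of 12 H4 and 0 of 4 H1 promoters, against 1.77% of all 35116 promoters. The H3 promoter with the octamer, that of HIST1H3D, is the same stretch as that of HIST1H2AD in the table, so it was counted under both types. Neighbouring H2A and H2B genes on opposite strands can also share an octamer, because their promoter windows overlap. Examples are HIST1H2AC with HIST1H2BC, HIST1H2AD with HIST1H2BF and HIST1H2AM with HIST1H2BO. The counts are therefore of genes, not of separate sites. CCAAT was found on either strand in 84.2% of the histone promoters (34.6% of all) and TATAAA in 68.4% (11.5% of all). The motifs were counted separately, with overlaps allowed. The 150 bases before the start are shown for an H2B gene with the octamer, an H2B gene without it and an H4 gene, with the 3 motifs on either strand in capitals, each at its gene's own strand.
HIST1H2BK (H2BC12), chr6:27146859-27147008, minus strand: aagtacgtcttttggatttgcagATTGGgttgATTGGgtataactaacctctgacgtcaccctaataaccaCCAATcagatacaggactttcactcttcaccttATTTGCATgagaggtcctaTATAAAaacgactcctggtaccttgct
HIST1H2BL (H2BC13), chr6:27807930-27808079, minus strand: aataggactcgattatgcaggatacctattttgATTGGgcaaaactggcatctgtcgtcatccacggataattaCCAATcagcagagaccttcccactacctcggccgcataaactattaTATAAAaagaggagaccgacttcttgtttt
HIST1H4K (H4C12), chr6:27831561-27831710, minus strand: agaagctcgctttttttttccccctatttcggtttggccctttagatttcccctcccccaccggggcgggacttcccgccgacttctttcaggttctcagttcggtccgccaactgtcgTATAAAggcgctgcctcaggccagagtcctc
The H2A and H2B genes with the octamer had a median change of -0.59 in KD1 (22 genes), and those without it -0.53 (8 genes). Their medians between KD1 and KD2 were -0.59 and -0.57. HIST2H2BF, whose probe lies far from the promoter held for it, is counted among the genes with the octamer. The 12 H4 genes whose promoters were read, none with the octamer in this window, had a median of -0.64 between KD1 and KD2.

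For comparison, 4 other lists were read: factors of histone gene transcription and mRNA processing, replication-independent histone variants, histone chaperones and S-phase replication genes. Their counts by 1.5-fold stand against 14% of all genes lower and 12.4% higher in KD1, and 10.6% lower and 9.68% higher in KD2. Their median differences between KD1 and KD2 lay between -0.03 and 0.05, where the clustered genes had -0.57. Of 22 genes for histone transcription and mRNA processing, 20 were measured, with 0 lower and 4 higher by 1.5-fold in KD1 (median -0.07), and 1 lower and 1 higher in KD2 (median 0.02). SLBP, which binds the stem-loop (probe level 3.51 in NC, 4.29 in KD1 and 4.08 in KD2), and ZNF473, a U7 snRNP partner (-1.37, -0.53 and -0.60), had the highest mean changes, 0.68 and 0.81. The lowest were CASP8AP2, a histone locus body protein (-0.63, -1.21 and -1.13), and HINFP, a regulator of H4 transcription (2.11, 2.48 and 0.94), which was low in KD2 alone. NPAT was below background on all arrays. The list's median difference between KD1 and KD2 was 0.03.

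Genes listed as replication-independent histone variants had a median of 0.01 in KD1 (13 genes) and -0.16 in KD2 (14 genes). By 1.5-fold, 2 were lower and 0 higher in KD1, and 1 was lower and 0 higher in KD2. H2AFX, which marks DNA breaks when phosphorylated, gave 6.46 in NC, 6.19 in KD1 and 6.15 in KD2. H2AFZ, which encodes H2A.Z, gave 5.64, 6.06 and 5.39. H3F3A, which encodes H3.3, gave 8.40, 7.26 and 8.46 so it was low on the KD1 array and near NC on KD2. H3F3C (7.60, 7.93 and 7.90) and H1F0 (6.82, 7.07 and 6.81) had the highest mean changes. H2AFB1 was above background on NC alone, and was at least 4.30-fold lower in KD1 and at least 3.81-fold lower in KD2. H3F3B was not analysed here.

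The 23 histone chaperones had a median of -0.04 in KD1 and 0.01 in KD2 (22 measured), and the 32 S-phase replication genes -0.19 and -0.12, with a median difference between KD1 and KD2 of 0.05 and -0.03. In KD1, 2 chaperones were lower and 3 higher by 1.5-fold, and in KD2 1 was lower and 4 were higher. SPTY2D1 (1.25 in KD1 and 1.13 in KD2) and HIRA (0.77 and 0.79) had the highest mean changes of the chaperones, and ANP32E (-1.13 and -0.48) and ATRX (-0.61 and -0.81) the lowest. Of the S-phase genes, 3 were lower and 2 higher by 1.5-fold in KD1, and 3 were lower and 1 higher in KD2, each share below that of all genes. MCM5 (-1.33 and -1.11) and CDT1 (-1.08 and -0.61) had the lowest mean changes and RRM2 (1.07 and 1.00) and TYMS (0.60 and 0.24) the highest.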

How the data were processed

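Gene expression was profiled in HCT116 cells on Agilent SurePrint G3 Human GE v3 arrays, 1 array each for NC, KD1 and KD2. The deposited intensity values come from Agilent Feature Extraction 10.7.1.1 per the labels. They are background-corrected signals on a linear scale, not scaled between arrays. The deposited series table was linear and neither centred nor scaled: 99.7 to 99.8% of its probes were within 0.1% of the mean scanner intensity. Its column medians were 7.91 (NC), 9.74 (KD1) and 9.43 (KD2), and it was used as an alternative. Spots marked as outliers were left out, spots of a probe were averaged as log2 values, and the 75th percentile of each array was subtracted. A gene was represented by its brightest probe and was measured in a comparison when well above background on at least 1 array. A value below background on 1 of the arrays was raised to the lowest detected signal of that array if it lay under it. Members matched RefSeq symbols for 69 of 69 names. limma 3.58.1 in R 4.3.3 fitted both knockdowns against NC. Counting and fitting were tested on simulated data. The members and lists were chosen with earlier results of these data known. Named genes were PRMT1, the brightest member of each type, the 5 lowest, 5 highest and 5 most different between knockdowns, genes whose probes moved in opposite directions, and the extremes of each list; other members named were chosen after their values were seen. With 1 array per group there is no p-value for a single knockdown, and the number of arrays limits the precision.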

Additional observations from a re-analysis of the deposited data

Results flagged for a closer look

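HIST1H1A was flagged because the knockdowns moved opposite ways. Its log2 change was -1.07 in KD1 and 0.66 in KD2, both past 1.5-fold with the values as reported. The share of all genes with such opposite changes was not counted. In other settings the changes of HIST1H1A were no longer both past 1.5-fold. With normexp background correction the changes were -0.44 and 0.22, with spike-in scaling the KD1 change was -0.43, and with median scaling the KD2 change was 0.51. With 1 array per group the difference between the knockdowns was not tested. Its levels, -1.29 in NC, -2.36 in KD1 and -0.63 in KD2, were among the lowest of the family.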

How the results depend on the processing

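No paired analysis was possible because each group had 1 array, and for the same reason no array could be left out. Counts of histone genes past 1.5-fold moved with the scaling, and the cause was not tested. Shares of all genes past the same fold, in brackets, moved too. Lower in KD1 than in NC were 24 genes (14%), but 10 with normexp background correction (4.99%), 15 with median scaling (9.61%), 1 with spike-in scaling (1.97%), 6 with the series table (3.58%) and 9 (10.4%) after GC content and signal were subtracted, a setting chosen after the data had been seen. Higher were 0 (12.4%), but 7 with spike-in scaling (48.4%), 2 with the series table (32.4%), 2 with no filter on dim probes (10.3%), and 1 each with the mean over probes (11.4%), with every probe counted (12.6%) and after the GC correction (12%). The median in KD1, -0.53, became 0.11 with spike-in scaling and -0.12 with the series table, in which the median of all genes was 0.57 and 0.34. HIST1H2AC, at -0.59, turned to 0.043 with spike-in scaling. In KD2, 2 genes were higher with normexp (4.1%) and 9 with spike-in scaling (22.4%), against 4 (9.68%), and 1 was lower with median scaling (18.1%), against 0 (10.6%). Lower in KD1 than in KD2 were 29 genes (9.66%), but 8 with normexp (2.54%), 6 each with median scaling (3.92%), spike-in scaling (3.12%) and the series table (3.46%), and 44 with the percentile over detected probes (13.3%), and 1 was higher with no filter (8.12%). The median between KD1 and KD2 stayed below 0 in all settings, from -0.67 to -0.22. In the limma fit, which has 1 NC array, the median log2 change of the histone genes was -0.25 as reported. That median was -0.15 with normexp, -0.15 with quantile normalization and -0.27 with median scaling. With the series table it was 0.006, and with spike-in scaling 0.21.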
